A study of Homo sapiens with 6 samples.

Results

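Metallothioneins are small cysteine-rich proteins that bind zinc, copper and cadmium ions in thiolate clusters. In liver cells they buffer zinc and take up toxic metals, and their genes are classic targets of metal exposure, glucocorticoids and oxidative stress. When zinc is in excess, the zinc-finger factor MTF1 binds metal response elements in their promoters and raises their transcription. The human MT1 and MT2A genes lie side by side on chromosome 16, next to MT3, first described in brain, and MT4, first described in squamous epithelium.

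The values of 10 metallothionein genes (MT1A, MT1B, MT1E, MT1F, MT1G, MT1H, MT1M, MT1X, MT2A and MT3) were taken from an exon array experiment on Huh-7, an established human line derived from a hepatocellular carcinoma. The tested cells were kept in 0.5 mM amiloride for 24 hours, with 3 arrays, and the controls are labelled untreated, also with 3 arrays. Amiloride is a potassium-sparing diuretic, a blocker of sodium channels in epithelia and of sodium-proton exchange. Its stock was made in DMSO, and the labels do not say whether the controls received DMSO. All cells came from 1 cell line, the arrays are labelled biological replicates with no note of separate culture days, and the spread between arrays may therefore be partly technical.

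An exon array reads each gene with many short probe sets along its exons. Members were found by the gene symbol in the array annotation: 61 probe sets carried 1 of the 10 symbols and 9 more carried several symbols, a total of 70 among 1408285 probe sets and 10 among 19488 genes. The 10 genes were chosen with earlier results of the same comparison known, in which metallothioneins lay higher under amiloride. Their differences are therefore described here and not tested. Values are given as the deposited linear intensity, or as its log2 with intensities under 1 set to 1. A gene level is the median log2 value over all probe sets that carry that symbol alone. The paralogues are close copies of one another, and how far probe sets of 1 paralogue also bind RNA of others was not tested, so that the level of a single MT1 gene is uncertain. In RNA of a whole culture, more cells that use a gene cannot be told apart from more of its RNA per cell.

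Promoter sequences were at hand for 4 of the 10 genes, and they are shown because the metal response elements that MTF1 binds are visible in them. Each runs 5′ to 3′ over 300 bases, from 250 bases before to 50 bases after the gene start, from RefSeq on GRCh38.p14. All 4 lie on the plus strand: MT2A at chr16:56608334-56608633, MT1B at chr16:56651636-56651935, MT1H at chr16:56669564-56669863 and MT1X at chr16:56682220-56682519. Capitals mark matches to the metal response element core, searched as TGCACNC or TGCGCNC on both strands.
MT2A: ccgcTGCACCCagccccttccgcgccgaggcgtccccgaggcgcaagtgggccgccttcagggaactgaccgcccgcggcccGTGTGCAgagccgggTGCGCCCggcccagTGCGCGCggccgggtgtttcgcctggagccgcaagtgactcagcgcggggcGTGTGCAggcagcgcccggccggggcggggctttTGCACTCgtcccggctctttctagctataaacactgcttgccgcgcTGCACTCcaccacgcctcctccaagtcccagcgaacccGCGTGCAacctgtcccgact
MT1B: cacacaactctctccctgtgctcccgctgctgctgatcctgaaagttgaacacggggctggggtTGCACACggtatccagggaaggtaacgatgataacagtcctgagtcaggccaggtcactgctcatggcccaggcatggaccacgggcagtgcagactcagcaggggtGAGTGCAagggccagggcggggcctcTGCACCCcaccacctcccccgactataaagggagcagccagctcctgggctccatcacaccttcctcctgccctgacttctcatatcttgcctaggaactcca
MT1H: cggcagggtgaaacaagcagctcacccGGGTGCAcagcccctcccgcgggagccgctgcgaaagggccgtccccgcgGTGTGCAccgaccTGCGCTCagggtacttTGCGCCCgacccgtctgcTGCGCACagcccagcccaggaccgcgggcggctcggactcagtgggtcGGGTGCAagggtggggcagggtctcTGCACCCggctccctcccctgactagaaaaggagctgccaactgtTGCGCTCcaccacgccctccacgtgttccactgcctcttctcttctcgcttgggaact
MT1X: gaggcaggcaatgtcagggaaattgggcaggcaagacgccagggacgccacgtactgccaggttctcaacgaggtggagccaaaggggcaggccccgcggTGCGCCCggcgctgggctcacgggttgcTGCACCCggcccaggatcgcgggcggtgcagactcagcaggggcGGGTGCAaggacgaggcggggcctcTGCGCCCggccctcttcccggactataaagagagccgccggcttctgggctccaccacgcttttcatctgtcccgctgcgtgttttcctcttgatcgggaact

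The MT2A and MT1H stretches held 8 matches each, that of MT1X 4 and that of MT1B 3. Among the 35116 promoter windows of the same length in the reference, 29.6% held at least 1 match, 2.3% at least 3, 0.601% at least 4 and 0.0199% at least 8. In MT1B, MT1H and MT1X a match stood at the same place, from base -53 to base -47 counted from the gene start. A match on the reverse strand stood at -78 to -72 in MT1H and MT1X, and at -79 to -73 in MT1B. The letters TATAAA, the core of a TATA box searched on the plus strand, began at base -29 in MT2A and at -30 in MT1B and MT1X, with no match in MT1H, and were found in 7.33% of all windows. The antioxidant response element core TGACNNNGC, searched on both strands, had 1 match each in MT2A, MT1B and MT1X and none in MT1H, against 13.3% of windows with at least 1. No antioxidant match overlapped a metal response match. Such matches describe letters and do not show that a factor was bound.

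The deposited arrays were not on one scale. Median intensities were 12, 4.71 and 6.26 on amiloride arrays 1, 2 and 3 and 13.1, 5.08 and 6.42 on control arrays 1, 2 and 3, so replicate 1 was the bright one in both groups. Control replicate 1 stood apart, with gene levels that correlated at 0.643 to 0.723 with the other arrays, where the others correlated at 0.855 to 0.950 with each other (Pearson's r over genes, and genes are no independent replicates). Liver markers were the high ones, which cannot tell Huh-7 from other hepatoma lines. Over 10 hepatocyte and hepatoma markers the median level was 8.53 to 10.0 on amiloride arrays and 8.89 to 9.41 on control arrays. For 6 fibroblast markers it was 3.01 to 4.59 on amiloride and 2.91 to 4.49 on control arrays, for 4 measured leukocyte markers 1.67 to 2.72 on amiloride and 1.79 to 3.61 on control arrays, and for 5 endothelial markers 2.06 to 3.70 on amiloride and 2.68 to 3.78 on control arrays. None of the marker genes tested passed an adjusted p under 0.05 between the groups (limma).

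The MT1 genes and MT2A had higher levels on each amiloride array than on any control array, and MT3 did not. The 9 differences without MT3 ran from 0.81 for MT2A to 2.97 for MT1E on the log2 scale, with a median of 1.55, and that of MT3 was -0.16. Of all 19488 genes, 6.09% lay higher without overlap between the groups and 0.564% lower, and the median difference of all genes was 0.03. Since the genes were chosen on this contrast, nothing is read from their count of 9 in 10. After each array was centred on its median, the groups of MT1B, MT1G and MT2A overlapped, and after quantile normalization also those of MT1M, while their mean differences stayed positive. Under the same centring and quantile scales, 16.1% and 14.8% of all genes lay higher without overlap. Without control replicate 1, the differences of the 9 genes ran from 0.59 for MT2A to 3.52 for MT1E. Leaving out an array cannot make separated groups overlap, so their separation there adds nothing.

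**Figure D1:**
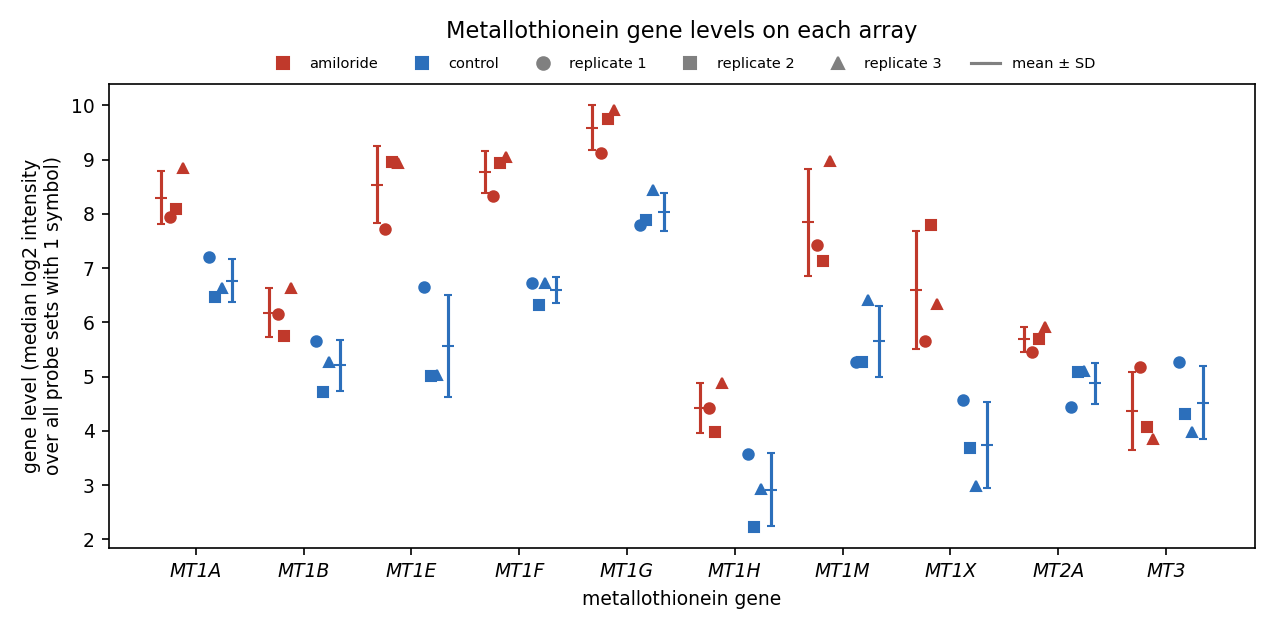
Gene levels (vertical axis, median log2 intensity over all probe sets with 1 symbol) of the 10 metallothionein genes (horizontal axis) on 3 amiloride arrays, in red at the left of each gene, and 3 control arrays, in blue at the right. Marker shapes give the replicate number and bars the mean ± SD, and MT3 is the only gene of the 10 in which red and blue points share a range.

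By the median over probe sets on the deposited scale, MT1E and MT1X showed the largest differences of the 10, an order that turned in some settings. MT1E, an inducible MT1 isoform, had gene levels of 7.73, 8.96 and 8.93 on the amiloride arrays, against 6.66, 5.01 and 5.03 on the control arrays. Its mean was 8.54 ± 0.70 in amiloride-treated and 5.57 ± 0.95 in control cells (SD, n = 3 each), a difference of 2.97 or 7.85-fold. The groups were 1.07 apart between the arrays of replicate 1 but 3.95 and 3.90 apart between those of replicates 2 and 3. Of its 9 probe sets, 6 lay higher without overlap and 3 overlapped. Among all probe sets with 1 symbol, 5.11% lay higher without overlap. Nothing is read from such counts, here or for the genes below, because the members were chosen on this contrast. Probe set 3662148 had intensities of 520, 989 and 1373 under amiloride, against 105, 90 and 190 in controls. Probe set 3662146 had 38.6, 15.3 and 13.6 under amiloride, against 42.6, 7.36 and 15.8 in controls, and there the groups overlapped. Taking the mean in place of the median over its probe sets brought the MT1E difference to 1.80, below 2.19 for MT1F, 2.17 for MT1X and 1.99 for MT1M. With 16 added before log2 MT1F, at 2.01, lay above MT1X, at 1.94, and MT1M lay above MT1X without amiloride replicate 2 (2.55 and 2.26) and without control replicate 3 (2.57 and 2.47).

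MT1X, the isoform encoded at the far end of the cluster, had gene levels of 5.67, 7.79 and 6.35 under amiloride, against 4.57, 3.69 and 2.98 in controls. The mean was 6.60 ± 1.09 in amiloride-treated and 3.75 ± 0.79 in control cells (SD, n = 3 each), a difference of 2.85 or 7.23-fold. Its same-numbered arrays were 1.10, 4.10 and 3.36 apart for replicates 1, 2 and 3. All 11 of its probe sets had a higher mean under amiloride, and 7 of them lay higher without overlap. Probe set 3662248 read 173, 473 and 756 under amiloride, against 86.2, 15.5 and 33.3 in controls, a log2 difference of 3.48. Probe set 3662253 read 20, 53 and 68 under amiloride, against 1, 3 and 1 in controls. Its difference of 4.85 was the largest of all 61 probe sets, but 2 of its control values lay at the floor of 1 and the size depends on that floor. Probe set 3662255 was far from the floor in both groups, with 1252, 1750 and 1873 under amiloride, against 632, 441 and 474 in controls, a difference of 1.65.

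MT1M and MT1F followed, at differences of 2.19 and 2.18, and in both genes all 5 probe sets lay higher without overlap. MT1M, an isoform known to be reduced in many liver tumours, had levels of 7.43, 7.13 and 8.97 under amiloride, against 5.27, 5.28 and 6.41 in controls. Its mean was 7.84 ± 0.99 in amiloride-treated and 5.65 ± 0.66 in control cells (SD, n = 3 each). In MT1M the replicate 1 arrays were 2.17 apart, within the 1.85 and 2.56 of replicates 2 and 3. MT1F had levels of 8.33, 8.94 and 9.05 under amiloride, against 6.73, 6.32 and 6.73 in controls. The MT1F mean was 8.77 ± 0.39 in amiloride-treated and 6.59 ± 0.24 in control cells (SD, n = 3 each), the tightest control values of the 10 genes. Its probe set 3662209 read 229, 151 and 360 under amiloride, against 5, 80 and 106 in controls, and the control of replicate 1 was far below the other controls.

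MT1G, MT1A and MT1H lay close together at differences of 1.55, 1.53 and 1.51. MT1G, another inducible isoform of the liver, had levels of 9.12, 9.74 and 9.91 under amiloride, against 7.80, 7.88 and 8.44 in controls. Its mean was 9.59 ± 0.41 in amiloride-treated and 8.04 ± 0.35 in control cells (SD, n = 3 each), and 4 of its 6 probe sets lay higher without overlap. One of the others, 3693000, was near the floor on every array, with 5.201, 1.41 and 2.91 under amiloride, against 4.02, 6.88 and 1.85 in controls. MT1A had levels of 7.95, 8.09 and 8.85 under amiloride, against 7.21, 6.47 and 6.64 in controls. The MT1A mean was 8.30 ± 0.49 in amiloride-treated and 6.77 ± 0.39 in control cells (SD, n = 3 each), with 4 of 6 probe sets higher without overlap. MT1H, whose promoter stretch held 8 metal response matches, had levels of 4.42, 3.97 and 4.89 under amiloride, against 3.58, 2.23 and 2.93 in controls. Its mean was 4.43 ± 0.46 in amiloride-treated and 2.91 ± 0.67 in control cells (SD, n = 3 each). MT1H had only 3 probe sets of its own, and its brightest, 3662212, read 152, 385 and 282 under amiloride, against 82.7, 44.4 and 44.2 in controls. When 16 was first added to all intensities, which shrinks differences of dim probe sets, the MT1H difference was 0.66.

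MT1B and MT2A had the smallest differences among the 9 genes without overlap on this scale, while MT1H was the smallest with 16 added. MT1B, with 3 metal response matches in its promoter stretch, had levels of 6.15, 5.75 and 6.64 under amiloride, against 5.65, 4.72 and 5.26 in controls. Its mean was 6.18 ± 0.44 in amiloride-treated and 5.21 ± 0.47 in control cells (SD, n = 3 each), a difference of 0.97 or 1.96-fold. The 3 bright MT1B probe sets lay higher without overlap, among them 3662193 at 294, 975 and 849 under amiloride, against 107, 171 and 178 in controls. The 3 dim ones overlapped, such as 3662192 at 23.5, 16.5 and 21.2 under amiloride, against 23.5, 8.02 and 10.7 in controls.

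MT2A, the widely expressed isoform, had levels of 5.45, 5.70 and 5.92 under amiloride, against 4.44, 5.08 and 5.11 in controls. The mean was 5.69 ± 0.23 in amiloride-treated and 4.88 ± 0.38 in control cells (SD, n = 3 each), a difference of 0.81 or 1.75-fold. This level is the midpoint of unlike readings, since 2 of its 4 probe sets were bright and 2 lay near the floor on all arrays. Probe sets 2729820, 2729855 and 2729857 have numbers far from 3662117 and from those of the other members. A pseudogene, MT2P1, lies on chromosome 4. The array annotation gives no positions, so which copy these probe sets read was not tested. Probe set 2729855 read 2279, 1811 and 2312 under amiloride, against 648, 588 and 735 in controls, a log2 difference of 1.70. Probe set 3662117 read 1458, 1082 and 1297 under amiloride, against 224, 484 and 790 in controls, a difference of 1.53. Neither of these overlapped, while 2729820 read 1.31 to 2.81 under amiloride and 1.63 to 2.37 in controls. Over the 2 bright probe sets alone the MT2A difference was 1.61. The MT2A promoter stretch held 8 metal response matches, as did that of MT1H, beside 4 in MT1X and 3 in MT1B. Whether match numbers go with the differences was not tested.

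MT3, the neuronal isoform also called growth inhibitory factor, had levels of 5.18, 4.07 and 3.85 under amiloride, against 5.28, 4.32 and 3.97 in controls. Its mean was 4.37 ± 0.72 in amiloride-treated and 4.52 ± 0.67 in control cells (SD, n = 3 each), a difference of -0.16 within the spread of either group. None of its 6 probe sets separated the groups. The brightest, 3662099, read 112, 37.2 and 36.7 under amiloride, against 161, 23.3 and 42.1 in controls, so that the replicate 1 arrays were the high ones on both sides. The sign of the MT3 difference turned in 3 of 14 alternative settings, to 0.22 at most. The 14 include a setting with the replicate number as a block, which leaves this difference unchanged.

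**Figure D2:**
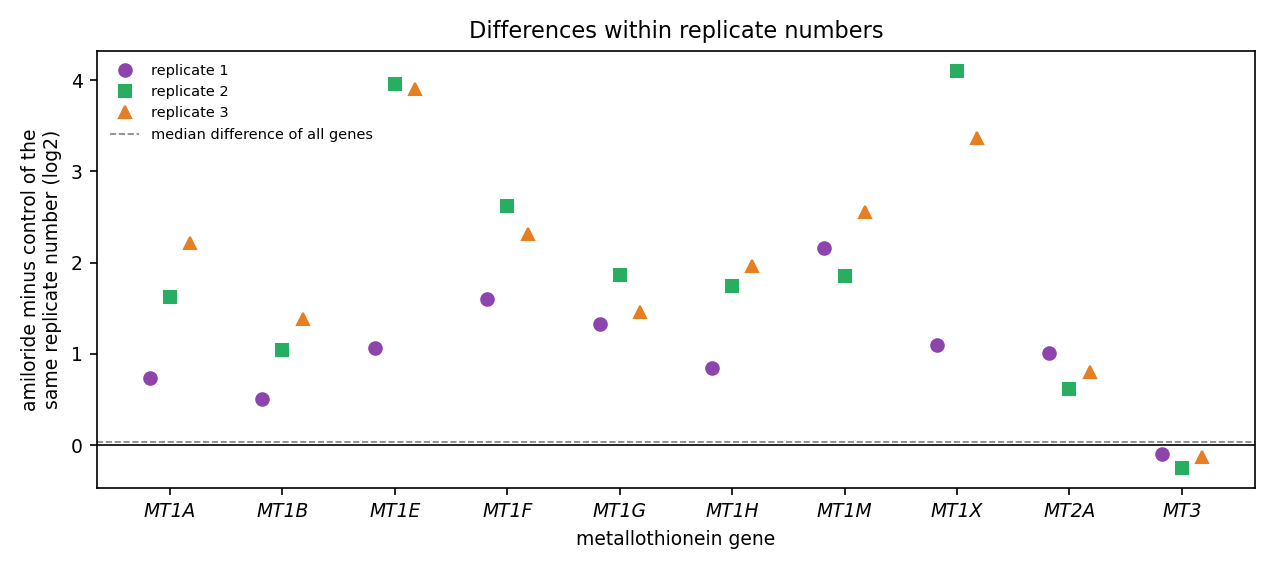
Gene level of each amiloride array minus that of the control array of the same replicate number (vertical axis, log2) for the 10 metallothionein genes (horizontal axis). The dashed line is the median difference of all genes, 0.03. Replicate 1 gave the smallest of the 3 differences in 7 of the 9 genes other than MT3.

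Within replicate numbers, amiloride lay above control in all 3 pairs of each gene other than MT3. Those differences ran from 0.50 to 2.17 for replicate 1, from 0.62 to 4.10 for replicate 2 and from 0.80 to 3.90 for replicate 3. All genes together had medians of 0.13, 0.04 and 0.03 in the same pairs. The same-numbered differences of MT3 were -0.09, -0.25 and -0.12. In the order of mean differences, MT1E, MT1X, MT1M, MT1F, MT1G, MT1A, MT1H, MT1B, MT2A and MT3, the ranges of the 3 same-numbered differences overlapped between each gene and the next, except between MT2A and MT3.

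Over the single probe sets, 38 of the 61 with 1 symbol lay higher without overlap, 23 overlapped and 0 lay lower without overlap. Among all probe sets with 1 symbol, 5.11% lay higher without overlap and 1.45% lower, and nothing is read from the members' count because they were chosen on this contrast. The median log2 difference of the 61 was 1.73, with a range from -0.64 for an MT3 probe set to 4.85, beside a median of 0.04 over all probe sets with 1 symbol. The mean was higher under amiloride in 54 and lower in 7, of which 5 carried MT3. After median centring or quantile normalization 35 of the 61 lay higher without overlap, where 11.2% and 10.6% of all probe sets with 1 symbol did.

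Separation of the groups went with brightness. A total of 33 member probe sets had a mean log2 value at or above 6.18, the 95th percentile of all probe sets, and 31 of these lay higher without overlap. Between the 75th percentile, 3.97, and the 95th it was 5 of 12, and below the 75th 2 of 16. This brightness includes the amiloride arrays, so a probe set that is high there is bright in part for that reason. Among all probe sets, 7.46% of the brightest class, 3.91% of the middle one and 1.42% of the dimmest lay higher without overlap. The bright members that overlapped were MT1A 3662119, at 121, 163 and 179 under amiloride, against 122, 20.1 and 21.99 in controls, and MT1G 3693001, at 486, 365 and 723 under amiloride, against 64.0, 237 and 395 in controls. In each, 1 control array reached into the amiloride range.

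**Figure D3:**
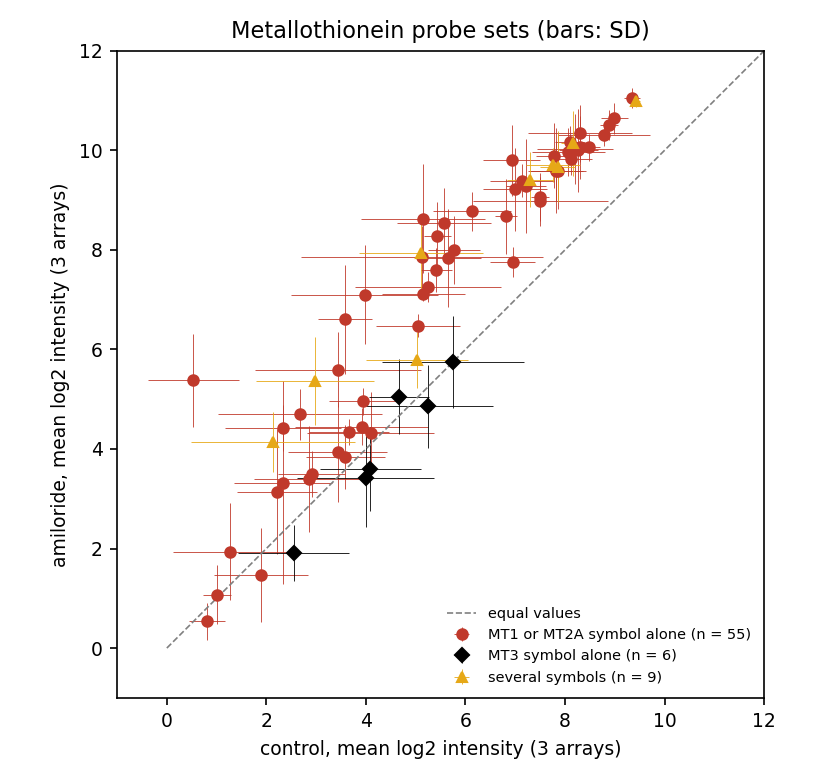
Mean log2 intensity of each metallothionein probe set on 3 amiloride arrays (vertical axis) against that on 3 control arrays (horizontal axis), with bars for the SD. The dashed line marks equal values. Bright probe sets of MT1 and MT2A lie above the line, and the 6 MT3 probe sets (black diamonds) lie around it.

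The 9 probe sets with several symbols belonged to pairs or triplets of paralogues, and 7 of them lay higher without overlap, as did 4.59% of all probe sets with several symbols. Their mean was higher under amiloride in all 9, with a median difference of 1.98. Probe set 3662116, which carries the symbols MT2A and MT1A, read 2136, 1854 and 2112 under amiloride, against 693, 659 and 721 in controls, a difference of 1.56. Probe set 2462595, shared by MT1H and the copy on chromosome 1 that the annotation calls MT1P2 (now MT1HL1), read 439, 805 and 886 under amiloride, against 210, 112 and 166 in controls. Counting shared probe sets for each of their genes brought the differences to 2.16 for MT1H and 1.77 for MT2A.

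For the test over the whole array, probe sets dimmer on average than a log2 value of 2.796, the median of all, were left out, and gene levels were fitted with limma over genes with at least 3 kept probe sets. Of the 61 probe sets 55 were kept, and 9 of the 10 genes entered the fit, MT2A having only 2 kept probe sets. At an adjusted p under 0.05, 46 probe sets (0.00653%) were called higher and 93 (0.0132%) lower among 704143, and 1 of the 46 was a member, MT1X 3662253. Its mean log2 value was 0.53 in controls and 5.38 under amiloride, so it passed the filter only through the amiloride arrays. Nothing is read from its call. Among 17018 genes, 2 (0.0118%) were called higher and 0 (0%) lower by limma, with 278 (1.63%) higher and 12 (0.0705%) lower at an unadjusted p under 0.05. One of the 2 was MT1X, with kept levels of 6.55, 8.08 and 7.63 under amiloride, against 4.95, 3.82 and 4.02 in controls. These levels include 3662253 and also 3662252, with means of 2.67 in controls and 4.69 under amiloride. Probe set 3662252 likewise passed the filter only through the amiloride arrays. So did MT1H 3662219, with means of 2.33 in controls and 4.43 under amiloride, and MT1B 3662198, with 2.34 and 3.32. Without 3662219, MT1H would have had fewer than 3 kept probe sets and would not have entered the fit. All genes shared 1 standard error of 0.69 in this fit, and part of it comes from the brighter arrays of replicate 1. Since the contrast chose the members, their calls are given as a description. The calls come from fits without pairing, and with the replicate number as a block 0 genes and 0 probe sets were called.

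Genes in and around the cluster were set in their order on chromosome 16. The order, from the RefSeq annotation, includes GNAO1, NUDT21, OGFOD1, BBS2, MT4, MT3, MT2A, MT1L, MT1E, MT1M, MT1JP, MT1A, MT1DP, MT1CP, MT1B, MT1F, MT1G, MT1H, MT1IP, MT1X, NUP93, SLC12A3, HERPUD1, CETP, NLRC5 and CPNE2, of which MT1CP was not measured here. OGFOD1, a ribosomal protein hydroxylase, was the only 1 of 10 measured neighbours without overlap, at 7.13, 6.34 and 6.17 under amiloride, against 5.96, 5.49 and 5.59 in controls. Of all 19488 genes, 6.09% lay higher without overlap and 0.564% lower, so nothing is read from that count of 1 in 10. NUP93, a nuclear pore scaffold protein, differed by 0.98 and BBS2, a protein of the ciliary BBSome, by -0.52, both with overlap. Over all probe sets, the difference of NUP93 was as large as that of MT1B, 0.97, and those of NUP93 and OGFOD1 (0.87) were larger than that of MT2A, 0.81. That MT2A level includes 2 probe sets near the floor. With kept probe sets alone, MT2A differed by 1.61, NUP93 by 1.04, MT1B by 1.00 and OGFOD1 by 0.87. The kept MT1B level includes a probe set that passed the filter only through the amiloride arrays. Over kept probe sets, the median of the neighbours was 0.10, beside 0.07 over all genes tested, and 0 of 10 were called, nor did any reach an unadjusted p under 0.05 (limma).

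**Figure D4:**
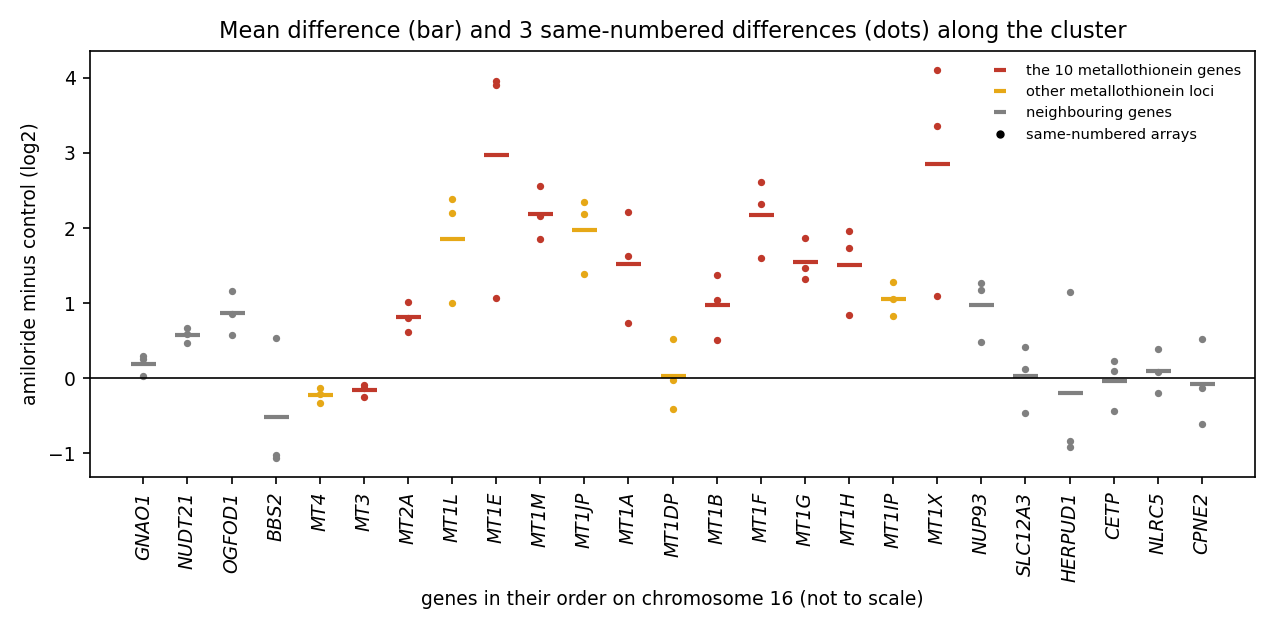
Amiloride minus control (vertical axis, log2 gene level over all probe sets) for measured genes in their chromosomal order (horizontal axis, not to scale). Bars are mean differences and dots the same-numbered differences. The 9 MT1 and MT2A genes lie between 0.81 and 2.97, MT3 and MT4 at -0.16 and -0.22, and measured flanking genes between -0.52 and 0.98.

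Other metallothionein loci were measured for 7 of 11 symbols and are mostly transcribed pseudogenes inside the cluster. Among their 35 probe sets 16 lay higher without overlap and 0 lower, with a median difference of 1.55. Of all probe sets with 1 symbol, 5.11% lay higher without overlap and 1.45% lower. The 35 include 2 that carry both MT1P3 and MT1JP, and 4.59% of all probe sets with several symbols lay higher without overlap. MT1L, a transcribed pseudogene beside MT1E, had kept levels of 8.61, 9.92 and 9.95 under amiloride, against 8.14, 7.67 and 7.65 in controls, a difference of 1.68. MT1DP differed by 1.54 over its kept probe sets and by 0.03 over all 10 of them, with overlap in the second case. Of 4 such loci tested, 0 were called, while MT1L and MT1DP reached an unadjusted p of 0.0146 and 0.0247 (limma, adjusted p = 1 for both). MT4, expressed in squamous epithelia, had 1 probe set of 3 apart from control: 3662090 read 135, 364 and 490 under amiloride, against 60.2, 64.6 and 57.7 in controls. These copies resemble the 10 genes in sequence, and binding of the same RNA by their probe sets was not tested.

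Among genes of related pathways, with levels over kept probe sets, MTF1, the zinc sensor that binds metal response elements, differed by 0.22 with overlap, at 5.02, 3.78 and 3.96 under amiloride, against 4.39, 3.72 and 4.001 in controls. SLC30A1, the zinc exporter of the plasma membrane and itself a target of MTF1, had 6.95, 5.15 and 4.15 under amiloride, against 5.51, 3.65 and 4.24 in controls. Its difference was 0.95, and the amiloride array of replicate 3 lay below 2 of the control arrays. Of 19 zinc-handling genes 0 were called in either direction by limma, also at an unadjusted p under 0.05, and their median difference was 0.09. SLC39A10, a zinc importer, differed by 0.74 without overlap, and the importers SLC39A9 and SLC39A3 by 0.92 and -0.60 with overlap. Over all its probe sets SLC39A10 differed by 0.70 with overlap. Among 9 copper-handling genes, with a median of 0.08, 0 were called and 0 reached an unadjusted p under 0.05 (limma). The copper transporter gene SLC31A2, at 0.79, and COX17, a copper chaperone of mitochondria, at 0.44, had the smallest p of that list, both with overlap.

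Genes of the oxidant and electrophile response had a median difference of -0.32 over 9 measured, and 0 were called. SLC7A11, the cystine importer of the cell membrane, had 5.83, 2.97 and 3.12 under amiloride, against 6.001, 5.65 and 6.17 in controls. Its difference was -1.97 (limma, unadjusted p = 0.00415, adjusted p = 1), and the amiloride array of replicate 1 lay within the control range. TXNRD1, a thioredoxin reductase, differed by -1.04 and GCLM, the modifier subunit of glutathione synthesis, by -0.80, both with overlap. The median over 9 glucocorticoid targets was 0.55, and 0 were called or reached an unadjusted p under 0.05 (limma). SGK1, a kinase that glucocorticoids and mineralocorticoids induce, had 8.40, 6.30 and 6.56 under amiloride, against 6.11, 6.23 and 5.18 in controls, a difference of 1.25 without overlap. KLF9, a transcription factor, differed by 1.02, NR3C1, the glucocorticoid receptor, by 0.99 and TSC22D3 by 0.61, each with overlap. These are levels over kept probe sets, and over all its probe sets NR3C1 differed by 1.04 without overlap. A gene that missed the threshold is not shown to be unchanged.

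The mean level of the 9 fitted members (MT2A left out), less the median gene level of each array, was 1.89, 3.55 and 3.72 under amiloride, against 0.83, 1.51 and 1.60 in controls. On this scale the replicate 1 array was the lowest in each group, and these are the bright arrays. In this mean, the levels of MT1X, MT1H and MT1B include probe sets that passed the filter only through the amiloride arrays. Among 17009 genes outside the 10, the closest profiles over the 6 arrays were those of TSPAN33 (Pearson's r = 0.998), NDUFAF1 (0.994), BTRC (0.993), SCML2 (0.992) and MPP1 (0.992). TSPAN33 is a tetraspanin, NDUFAF1 an assembly factor of respiratory complex I, BTRC an F-box protein of a ubiquitin ligase, SCML2 a Polycomb group protein and MPP1 a membrane scaffold of red cells. Their own differences were smaller than those of most members, from 0.70 for SCML2 to 1.46 for MPP1, and the groups of TSPAN33 and SCML2 overlapped on the deposited scale. By the same measure MT1HL1 reached 0.972, MT1L 0.961, MT1DP 0.864 and MT1IP 0.702. These 6 points fall into the 2 groups and share the brightness of their arrays, so the coefficients describe likeness and are not a test.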

How the data were processed

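Total RNA of Huh-7 cells was measured on Affymetrix whole-transcript exon arrays. The authors removed systematic bias with background probes, normalized and summarised the arrays in dChip, and deposited the result for each probe set as a linear intensity, and the labels name build hg18. The 2 sources give different dChip releases. These intensities were used as deposited, floored at 1 and taken to log2, and 0 sample columns stayed unused. By the array annotation 1 symbol stood at 357582 probe sets, several at 15322 and none at 1035381, with no exon numbers or positions, and 2966 symbols were updated. The number of arrays limits the precision.

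The fits used limma 3.58.1 in R 4.3.3 (lmFit and eBayes, two-sided, Benjamini-Hochberg) and were tested on simulated data. Those data had independent noise of the same spread for all genes, with no differences in brightness between arrays. They check the code, and cannot show how the fits behave on these arrays. With 3 arrays against 3 the smallest p an exact permutation test allows is 0.1, and none was made. The members and the lists were chosen with earlier results of these data known. Named were all members, MTF1, SLC30A1, up to 4 genes of each list with the smallest p, and the 5 genes most like the members. Single probe sets were picked after their values were seen.

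After removal of group means, arrays of the same replicate number correlated at 0.231, 0.203 and 0.175 over probe sets and at 0.184, 0.087 and 0.278 over genes. The gene value of 0.087 is under the limit of 0.1. The numbers were treated as pairing in the same-numbered differences and in the fits with the replicate number as a block. Except where a block is named, calls and p values come from fits without it. The choice to treat the numbers as pairing was made with both fits, blocked and unblocked, already known.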

Additional observations from a re-analysis of the deposited data

How the results depend on the processing

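The 9 genes without overlap were 6 after median centring, 5 after quantile normalization, and 9 in each leave-one-out setting and in the other settings. Leaving out an array cannot make separated groups overlap or turn the sign of their difference. The replicate block does not enter this count, so these settings could not lower it. The differences of the 9 genes kept their sign in every setting run, and of 140 alternative values of the 10 genes 132 moved by less than 1 SD. The 140 include the values under the replicate block, which equal the main ones because the block does not enter them. The sign turned only for MT3, to 0.11 with the filter at the median (chosen after seeing the data), 0.10 without amiloride replicate 3 and 0.22 without control replicate 1. The stricter filter gave 1.44 for MT1B, 2.22 for MT1H and 1.61 for MT2A. Called probe sets, 139 (46 higher, 93 lower), were 0, 0 and 0 under the replicate block, median centring, both together, quantile normalization or 16 added before log2, 10 (10 higher, 0 lower) with no filter and 77 (40 lower) with the stricter one, and leaving out 1 array gave 0 to 1214 (0 to 181 higher, 0 to 1033 lower), the highest without control replicate 1. Called genes, 2, were 0 under the replicate block, 7 with 16 added, 6 with no filter, 1 with the stricter filter, 1 with the mean over probe sets and 1 to 5 when 1 array was left out. MT1X was the 1 metallothionein gene called, and that count was 0 under the replicate block, centring, both together, quantile normalization, the stricter filter and the mean over probe sets, and without amiloride replicate 2 or 3 or control replicate 2 or 3. It was 2 without amiloride replicate 1, control replicate 1 or any filter, and 4 with 16 added. The block changed no call in the other gene lists, 0 in every setting run. The median difference of all genes tested was 0.07, 0.16 after centring and 0.12 after quantile normalization, and ran from -0.38 without amiloride replicate 1 to 0.49 without control replicate 1 when 1 array was left out. The causes were not tested. With 3 arrays per group and values near the floor, differences of dim probe sets were the least certain.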

Other observations

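In 43764 of 1408285 probe sets (3.11%) all 6 deposited intensities were whole numbers within 0.0005, while the rest had decimals. Among the 61 metallothionein probe sets with 1 symbol these were 4 (6.56%), namely MT1E 3662144 and 3662148, MT1F 3662209 and MT1X 3662253, the last being the member probe set called higher. Of the 46 probe sets called higher 2 were of this kind, as were 2 of the 93 called lower. Among probe sets tested, the median SD within groups was 1.06 on the log2 scale for the whole-number ones and 0.96 for the others.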
